A study of Mus musculus with 13 samples.

Results

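Kinesins are the motor proteins that walk along microtubules or take them apart, and this is an account of their mRNAs in mouse oocytes and eggs with and without the long noncoding RNA Sirena1. The genes were chosen by name: every gene whose symbol is Kif followed by a number, leaving out Kif4 and symbols that mark pseudogenes. This gave 39 of the 54232 genes in the table. Of the 39, 37 belong to the kinesin family and are called motors here by family, including Kif26a, which lacks motor activity. Kif1bp encodes a protein that binds kinesins and is not a motor, and Kif16bos is a noncoding RNA transcribed near Kif16b. The filter on low counts kept 31 of the 39 for testing, 30 motors and Kif1bp. Kinesins under other names, such as Cenpe and the Kifc genes, fall outside this choice and are counted separately near the end.

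The libraries fall into 4 groups: MII eggs of Sirena1 Null females (n = 4), MII eggs of Sirena1 WT females (n = 3), GV oocytes of Sirena1 Null females (n = 3) and GV oocytes of Sirena1 WT females (n = 3). GV oocytes are fully grown cells still arrested in prophase with an intact germinal vesicle, and MII eggs have completed the meiotic divisions up to metaphase of the second. Per the labels, each library holds 25 cells from superovulated females of strain C57BL6/J, with C57BL/6NCrl also named in the protocols. GV oocytes were collected in medium with 0.2 mM IBMX, which holds them in arrest, and eggs were collected 12 to 14 hours after hCG. The Null line carries a Cas9-made deletion of the Sirena1 promoter and was bred with C57BL/6NCrl animals before heterozygotes were used to make Null animals. The labels do not say whether pools of a group came from different females, so every p-value measures the spread between these pools, which may be technical. They also do not say how many founders the line descends from.

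A kinesin uses ATP to step towards one end of a microtubule, or, in the kinesin-13 family, to strip tubulin from its ends. In a dividing cell some members slide or shorten spindle microtubules, some carry chromosomes, and others gather at the midzone and complete cytokinesis, while the transport kinesins haul organelles and vesicles. A fully grown oocyte is transcriptionally silent and works from stored mRNA, and mouse oocytes mature to MII on acentriolar spindles.

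Levels are given as CPM, the count as a share of the library scaled by TMM, which sets libraries to a common level through the bulk of genes. CPM is not corrected for gene length, so levels are compared between samples and not between genes. Total counts ran from 30867614 to 41285507 per library, and 3 counts, the limit that a count of 0 allows, are worth 0.0727 to 0.0972 CPM and cover counting error only. The Sirena1 gene, listed as C86187, stood at 35.9 to 45.0 CPM in MII Null libraries against 4271 to 4693 CPM in MII WT libraries, and at 23.3 to 26.4 CPM in GV Null libraries against 2912 to 3092 CPM in GV WT libraries. All 12 oocyte markers were present, with summed levels from 10770 to 15100 CPM. The 20 cumulus and granulosa markers, which belong to the cells around the oocyte, summed to 630 CPM in GV Null replicate 2 and to 271 CPM in GV Null replicate 3, beside 114 CPM in GV Null replicate 1, and the sums of the other 10 libraries lay from 110 to 154 CPM. All libraries thus held some marker reads, and only sums of the markers are given. GV Null replicates 2 and 3 are called the libraries with cumulus markers below because their sums were raised. MII Null replicate 4 lay apart on the leading principal component, with a score of 25.7 where its group otherwise scored 65.8 to 81.4. GV Null replicates 2 and 3 also lay apart there, with scores of -107.9 and -91.1 where the other 4 GV libraries scored -71.3 to -64.4.

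Together the 39 genes took 3015 ± 212 CPM in MII Null libraries, 3061 ± 59.0 CPM in MII WT libraries, 2591 ± 175 CPM in GV Null libraries and 2783 ± 46.6 CPM in GV WT libraries (SD). The mean sum was higher in MII than in GV groups with TMM scaling. Single libraries overlapped, since MII Null replicate 1, at 2739 CPM, lay below the GV WT libraries (2740 to 2832 CPM) and below GV Null replicate 1. As a plain share of all counts the order was not kept, at 0.281%, 0.287%, 0.282% and 0.299% in the same groups. GV Null replicates 2 and 3, which had the raised cumulus markers, also had the lowest kinesin sums, 2449 and 2537 CPM, against 2787 CPM in GV Null replicate 1. The part of cumulus RNA in that difference was not tested. In pools of this kind, fewer cells of a type and less RNA per cell cannot be told apart.

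**Figure D1:**
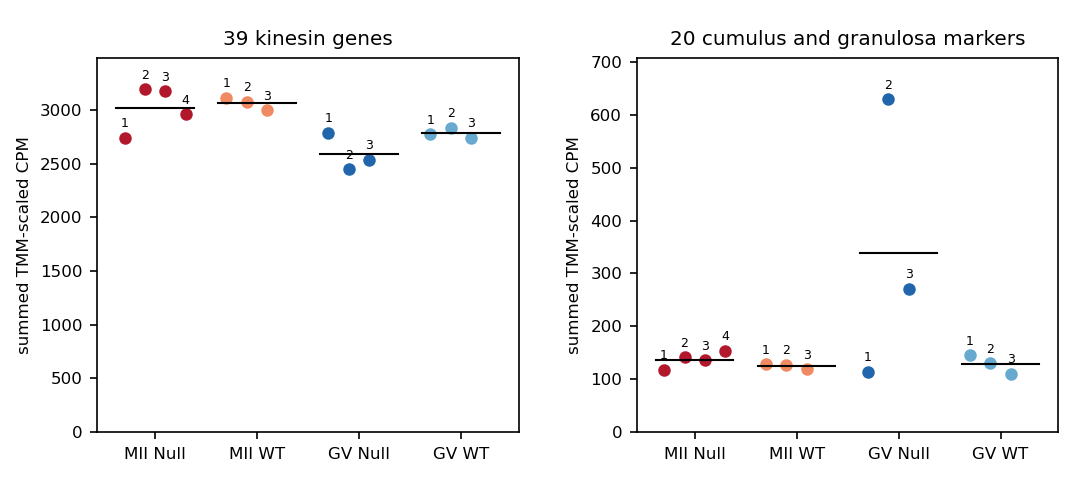
Summed TMM-scaled CPM of the 39 kinesin genes (left) and of 20 cumulus and granulosa markers (right) in each library, with replicate numbers beside the points and group means as lines. GV Null replicates 2 and 3 are highest for the markers, at 630 and 271 CPM, and lowest for the kinesin genes, at 2449 and 2537 CPM.

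Most kinesin reads came from a few genes. Kif23 and Kif14, both of the midzone and cytokinesis group, together took 41.6% of that CPM. With Kif17, Kif20b, Kif2a and Kif2c the share was 66.2%. These shares are not corrected for gene length, so they do not rank the genes by mRNA number. At the other end, 8 genes did not pass the filter. Kif2b, a kinesin-13 microtubule depolymerase, had 0 counts in all 13 libraries. Kif12 had 1 count in 1 GV WT library, and Kif19a, a kinesin of motile cilia, had 0 to 2 counts per library. Kif16bos had 0 to 5 counts, Kif28 had 0 to 6, Kif5a, the neuronal kinesin-1 heavy chain, had 0 to 7, and Kif6 had 0 to 10. Kif7, which works in Hedgehog signalling at the cilium, had 0 to 21 counts, and its highest counts, 14 and 21, were in GV Null replicates 2 and 3. The plot of levels in each library shows the tested genes from Kif1a, with 0 counts in some libraries, up to Kif23.

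**Figure D2:**
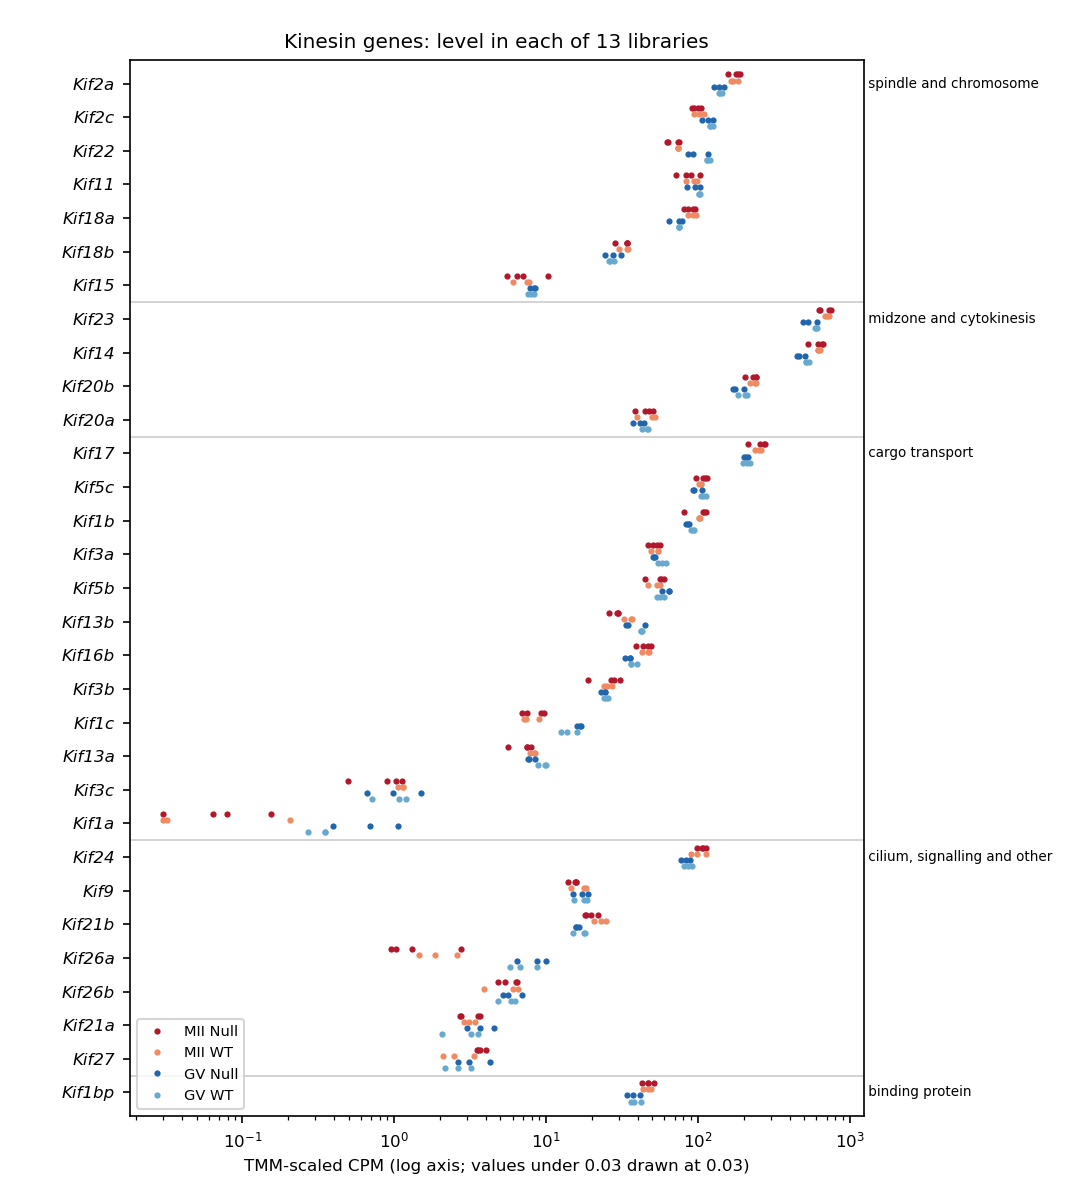
TMM-scaled CPM (log axis) of the 31 tested kinesin genes in each of the 13 libraries, grouped by role. Points are libraries of MII Null, MII WT, GV Null and GV WT, and values under 0.03 CPM are drawn at 0.03. Within most genes the 4 groups lie close together, and Kif26a, Kif1c and Kif22 show MII libraries below GV libraries.

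The main comparison among these libraries is between stages. In WT, 16 of the 31 tested genes passed the test of MII against GV, 11 higher and 5 lower in MII, where 42.7% of all 20143 genes tested passed (19.9% higher and 22.8% lower). In Null, 17 of 31 passed, 11 higher and 6 lower, where 49.0% of all genes passed (22.1% higher and 26.9% lower). The test is the quasi-likelihood test of edgeR with Benjamini-Hochberg adjustment over all genes and a threshold of 0.05. Shares of 51.6% in WT and 54.8% in Null stand near those of all genes, so the number of changes is not a result about kinesins. The median log2 fold change over the 31 genes was 0.039 in WT, against 0.0053 over all genes, and 0.12 in Null, against -0.049.

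The rises lost their calls with plain library totals, and the falls kept theirs. With plain library totals in place of TMM, 0 genes passed as higher and 10 as lower in WT, and 0 as higher and 11 as lower in Null, where 9.09% and 29.3% of all genes passed as higher and lower in WT and 9.85% and 36.3% in Null. That scaling moved the median of all genes to -0.20 in WT and to -0.28 in Null. A shift downward weakens rises and strengthens falls, so the kept falls are not thereby sounder than the rises. The lower calls in both genotypes then also held Kif11, Kif13a, Kif3a and Kif5b, with Kif5c in WT and Kif9 in Null. None of the genes that passed with TMM changed sign. Measured from that median, the plain-total change of Kif14, for example, was 0.25 in WT and 0.43 in Null, beside 0.26 and 0.38 with TMM. Statements below that a gene rose therefore hold for TMM scaling, that is, relative to the bulk of genes. All levels, in rises and falls alike, are of poly(A) RNA, and whether poly(A) tails changed in length between stages was not measured. Of the 11 rises in Null, 1 (Kif17) also kept its call without GV Null replicates 2 and 3, a comparison that has 1 GV Null library and takes its spread from the other groups.

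**Figure D3:**
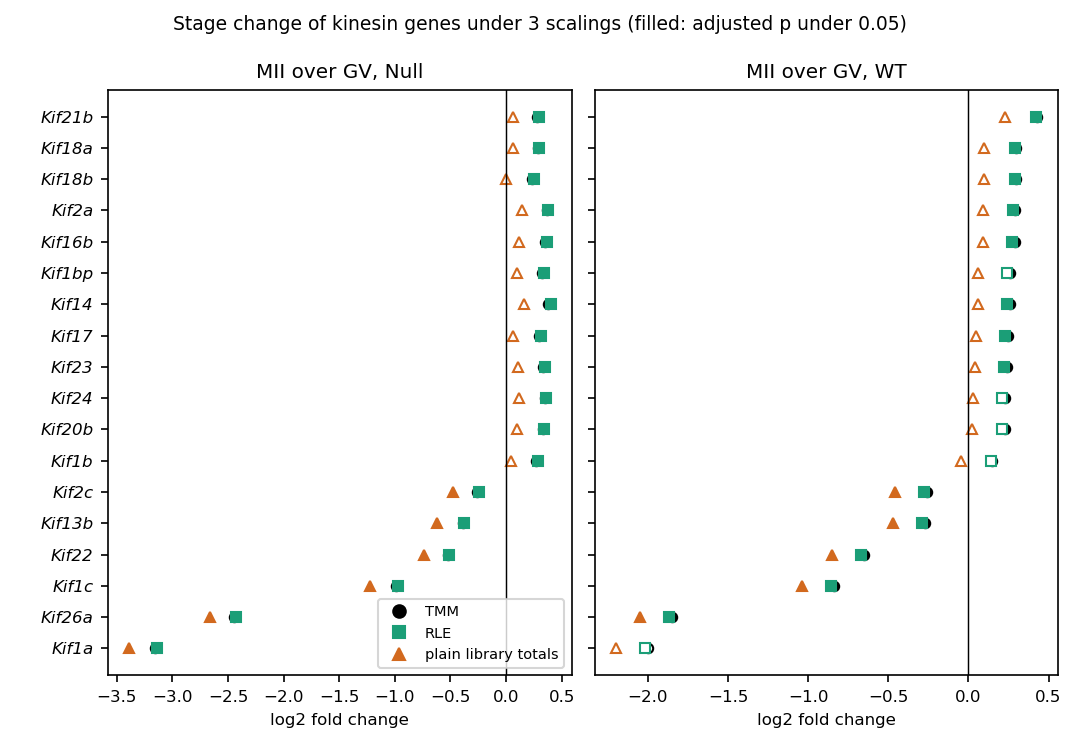
Log2 fold change of MII over GV in Null (left) and WT (right) for the 18 kinesin genes that passed in either, under TMM, RLE and plain library totals. Filled symbols have an adjusted p under 0.05. The rises sit between 0.23 and 0.43 with TMM in WT and lose their calls with plain totals, and the falls of Kif1c, Kif22 and Kif26a are filled under all 3 scalings in both genotypes.

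Kif26a (ENSMUSG00000021294, chromosome 12 from 112143974 to 112181747 in GRCm38.p6) fell in both genotypes. It encodes an atypical kinesin that binds microtubules but lacks motor activity and is known in the mouse for its part in enteric neuron signalling. It had 2.75, 0.945, 1.02 and 1.31 CPM in the MII Null libraries and 1.46, 2.58 and 1.84 CPM in the MII WT libraries. GV libraries held 9.97, 6.47 and 8.63 CPM in Null and 5.78, 8.70 and 6.71 CPM in WT. Every MII library lay below every GV library. The fold change was 5.45-fold lower in Null (log2 -2.45, SE 0.31, adjusted p = 1.04e-05) and 3.60-fold lower in WT (log2 -1.85, SE 0.34, adjusted p = 3.77e-04), and the call held in all 23 alternatives in both genotypes.

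Of 12 tested cargo transport kinesins 50.0% passed in Null and 33.3% in WT, where 49.0% and 42.7% of all genes did. Kif1c (ENSMUSG00000020821, chromosome 11 from 70700396 to 70731970), a vesicle transporter of the kinesin-3 family, fell in both genotypes. It had 6.93, 9.17, 7.50 and 9.70 CPM in MII Null libraries and 7.32, 7.13 and 9.02 CPM in MII WT libraries. GV Null libraries held 17.0, 16.7 and 15.9 CPM and GV WT libraries 12.5, 15.9 and 13.7 CPM. The stages did not overlap in either genotype. The log2 fold change was -0.99 in Null (SE 0.13, adjusted p = 8.62e-06) and -0.84 in WT (SE 0.15, adjusted p = 1.54e-04). In WT the call was lost where a change of at least 1.5-fold was required (adjusted p = 0.0918).

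Kif13b, another kinesin-3 that carries vesicles to the cell surface, had 26.0, 29.2, 29.6 and 29.6 CPM in MII Null libraries and 36.3, 36.5 and 32.4 CPM in MII WT libraries, against 44.6, 34.7 and 33.3 CPM in GV Null and 42.6, 42.0 and 42.2 CPM in GV WT libraries. MII libraries were lower than GV libraries of the same genotype without overlap. It fell by 0.39 on the log2 scale in Null (adjusted p = 0.00292) and by 0.27 in WT (adjusted p = 0.0463). The WT call was lost on leaving out any 1 of the 6 WT libraries, with an adjusted p of up to 0.177 (without MII WT replicate 3).

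Kif1a, which carries precursors of synaptic vesicles in neurons, had 3, 0, 2 and 5 counts in the MII Null libraries and 0, 6 and 1 in the MII WT libraries, against 16, 40 and 25 in the GV Null libraries and 12, 14 and 14 in the GV WT libraries. Levels were 0 to 0.155 CPM in MII Null and 0 to 0.207 CPM in MII WT libraries, against 0.393 to 1.05 CPM in GV Null and 0.269 to 0.351 CPM in GV WT libraries. It fell in Null (log2 -3.16, SE 0.74, adjusted p = 0.00154) and did not pass in WT (95% interval of the log2 fold change -3.82 to -0.18, adjusted p = 0.0652), and at so few counts the fold depends on the fit. Its highest counts, 40 and 25, were in GV Null replicates 2 and 3, the libraries with cumulus markers, and without both the Null call was lost (log2 -2.32, adjusted p = 0.140). The part of cumulus RNA was not tested.

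Of the transport kinesins, 3 others rose in at least 1 genotype with TMM scaling: Kif17, Kif16b and Kif1b. Kif17, a kinesin-2 that moves cargo in dendrites and cilia, had 255, 277, 271 and 214 CPM in MII Null libraries and 251, 236 and 258 CPM in MII WT libraries, against 201, 207 and 214 CPM in GV Null and 209, 197 and 221 CPM in GV WT libraries. The stages did not overlap in WT, and in Null the lowest MII library, replicate 4, came next to the highest GV library at 214 CPM. The log2 fold change was 0.30 in Null (adjusted p = 0.00568) and 0.25 in WT (adjusted p = 0.0274). The WT call was lost on leaving out 1 of 7 libraries, which are GV WT replicates 1 and 2, MII WT replicates 1 and 3 and MII Null replicates 1, 2 and 3 (adjusted p up to 0.120). Kif16b, which moves early endosomes, had 38.9, 46.6, 48.9 and 43.3 CPM in MII Null and 47.2, 42.7 and 47.1 CPM in MII WT libraries, against 35.7, 35.5 and 33.1 CPM in GV Null and 36.3, 39.5 and 36.1 CPM in GV WT libraries. It rose by 0.35 (adjusted p = 0.00281) and by 0.29 (adjusted p = 0.0171) on the log2 scale in Null and in WT, and MII libraries stood above GV libraries in both. The WT call was lost without GV WT replicate 1 or 3 or MII WT replicate 1 or 3 (adjusted p up to 0.0641), and the Null call of Kif16b without GV Null replicates 2 and 3 (log2 0.32, adjusted p = 0.0922).

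Kif1b, which transports mitochondria and synaptic vesicle precursors, had 80.9, 110, 108 and 113 CPM in MII Null libraries and 102, 103 and 101 CPM in MII WT libraries. GV Null libraries held 85.9, 86.6 and 83.8 CPM and GV WT libraries 89.8, 91.9 and 93.5 CPM. MII Null replicate 1 lay below all 3 GV Null libraries, and the other MII libraries lay above all GV libraries. The Null rise passed (log2 0.27, adjusted p = 0.0203) and the WT difference did not (log2 0.15, adjusted p = 0.223). The test of the difference between genotypes gave an adjusted p of 0.999, so the stage change is not shown to differ. The Null call of Kif1b was lost in 11 of 23 alternatives. Among these were a filter of 5 CPM, plain totals, the replicate block and a fit of only the groups compared. It was also lost without GV Null replicate 3 or MII Null replicate 2, 3 or 4 (adjusted p up to 0.0806), and without GV Null replicates 2 and 3 together (log2 0.26).

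The kinesin-1 heavy chains Kif5b and Kif5c did not pass in the stage comparison of either genotype. Kif5b, the ubiquitous kinesin-1 heavy chain, had 44.4, 59.5, 57.3 and 56.3 CPM in MII Null and 46.7, 53.8 and 56.3 CPM in MII WT libraries, against 64.0, 64.5 and 58.0 CPM in GV Null and 54.0, 59.4 and 56.1 CPM in GV WT libraries. Its paralogue Kif5c had 96.5, 111, 107 and 114 CPM in MII Null and 101, 105 and 104 CPM in MII WT libraries, against 106, 92.2 and 93.9 CPM in GV Null and 112, 105 and 107 CPM in GV WT libraries. Log2 fold changes for Kif5b were -0.19 in Null (95% interval -0.40 to 0.0095) and -0.11 in WT (-0.33 to 0.11). For Kif5c they were 0.14 in Null (-0.015 to 0.29) and -0.067 in WT (-0.23 to 0.098). A p that misses the threshold does not show equality, and these intervals give the changes that the libraries allow. With plain library totals both genes passed as lower in MII in WT, with adjusted p of 0.0220 for Kif5b and 0.00715 for Kif5c, and Kif5b also in Null (adjusted p = 0.00157).

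The kinesin-2 pair Kif3a and Kif3b, which drive transport along the axoneme of cilia, also did not pass with TMM scaling. Kif3a had 47.0, 55.9, 53.4 and 50.7 CPM in MII Null and 54.1, 54.6 and 49.3 CPM in MII WT libraries, against 51.7, 50.9 and 50.4 CPM in GV Null and 58.2, 61.1 and 54.1 CPM in GV WT libraries. Kif3b had 18.7, 27.9, 26.7 and 30.6 CPM in MII Null and 24.1, 27.2 and 25.2 CPM in MII WT libraries, against 24.3, 24.2 and 23.0 CPM in GV Null and 24.0, 24.8 and 25.7 CPM in GV WT libraries. Log2 fold changes were 0.021 in Null and -0.13 in WT for Kif3a, and 0.12 in Null and 0.039 in WT for Kif3b. Kif13a, an endosome motor, and Kif3c, at 0.498 to 1.49 CPM over all libraries, did not pass with TMM scaling. They gave log2 changes of -0.15 and -0.25 in Null and of -0.23 and 0.16 in WT. With plain library totals Kif3a passed as lower in MII in both genotypes (adjusted p = 0.0330 in Null and 0.00318 in WT). So did Kif13a (adjusted p = 0.0351 in Null and 0.0285 in WT).

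The midzone and cytokinesis group had 3 of its 4 genes higher in MII and 0 lower in both genotypes with TMM scaling, and 0 passed with plain totals. Of all genes, 22.1% were higher and 26.9% lower in Null, and 19.9% and 22.8% in WT. Kif23 (ENSMUSG00000032254, chromosome 9 from 61917277 to 61946810), the motor of the centralspindlin complex, had 637, 722, 745 and 626 CPM in MII Null and 730, 704 and 687 CPM in MII WT libraries. GV Null libraries held 608, 491 and 528 CPM and GV WT libraries 599, 607 and 591 CPM, all below the MII libraries of the same genotype. The log2 fold change was 0.33 in Null (SE 0.080, adjusted p = 0.00213) and 0.24 in WT (SE 0.085, adjusted p = 0.0294). The WT call was lost in 12 of 23 alternatives, among them a filter of 5 CPM and plain totals. It was also lost on leaving out 1 of 9 libraries (adjusted p up to 0.101). These are all 3 GV WT replicates, all 4 MII Null replicates and MII WT replicates 1 and 2. The Null call was lost without GV Null replicates 2 and 3, the libraries with cumulus markers (log2 0.17, adjusted p = 0.235).

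Kif14, which binds citron kinase and the midzone bundler Prc1 (ENSMUSG00000041498, chromosome 1 from 136466301 to 136555938), had 526, 663, 650 and 615 CPM in MII Null and 631, 616 and 619 CPM in MII WT libraries. It had 505, 447 and 459 CPM in GV Null and 515, 535 and 511 CPM in GV WT libraries, without overlap between stages within a genotype. It rose by 0.38 in Null (adjusted p = 4.43e-04) and by 0.26 in WT (adjusted p = 0.0155) on the log2 scale. The WT call was lost without GV WT replicate 1 or 3 or MII WT replicate 1 (adjusted p up to 0.0572), and the Null call without GV Null replicates 2 and 3 (log2 0.28, adjusted p = 0.0575). Kif20b, which takes part in completing cytokinesis, had 203, 240, 240 and 229 CPM in MII Null and 240, 236 and 219 CPM in MII WT libraries, against 200, 169 and 176 CPM in GV Null and 202, 211 and 182 CPM in GV WT libraries. It rose by 0.33 in Null (adjusted p = 0.00253) and by 0.23 in WT (adjusted p = 0.0399), and the WT call was lost in 15 of 23 alternatives, among them RLE scaling, DESeq2 and the removal of any MII Null replicate, of GV WT replicate 1 or 3, or of MII WT replicate 1 or 2 (adjusted p up to 0.187). Without GV Null replicates 2 and 3 its Null change was 0.19 and the call was lost (adjusted p = 0.219).

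Kif20a, which brings the chromosomal passenger complex to the midzone, was the member of this group that did not pass. It had 38.6, 50.1, 44.6 and 47.8 CPM in MII Null and 49.4, 52.3 and 39.4 CPM in MII WT libraries, against 44.1, 37.0 and 41.6 CPM in GV Null and 46.8, 46.3 and 42.9 CPM in GV WT libraries. The stages overlapped in both genotypes. Its log2 fold change was 0.15 in Null (95% interval -0.078 to 0.37) and 0.053 in WT (-0.19 to 0.29). Kif20a shares its span with the protein-coding genes Brd8 and Cdc23, and without a stated strand setting their reads cannot be told apart.

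The spindle and chromosome group split in both directions, with 57.1% of its tested genes called in Null and 71.4% in WT, where 49.0% and 42.7% of all genes were. Among its 7 tested genes Kif22 and Kif2c fell in both genotypes, Kif2a and Kif18a rose in both with TMM scaling, Kif18b passed as higher in WT, and Kif11 and Kif15 did not pass. Kif22 (ENSMUSG00000030677, chromosome 7 from 127027729 to 127042467), the chromosome-bound motor that pushes chromosome arms away from the poles, had 75.0, 73.5, 62.7 and 63.0 CPM in MII Null and 74.1, 73.9 and 73.8 CPM in MII WT libraries. GV Null libraries held 116, 86.0 and 92.7 CPM and GV WT libraries 120, 115 and 114 CPM. Every MII library lay below every GV library. The fold was 1.44-fold lower in Null (log2 -0.52, SE 0.094, adjusted p = 1.70e-04) and 1.57-fold lower in WT (log2 -0.65, SE 0.10, adjusted p = 4.80e-05), and the call was lost only where a change of at least 1.5-fold was required.

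Kif2c (ENSMUSG00000028678, chromosome 4 from 117159633 to 117182624), the depolymerase that frees wrongly attached microtubules at centromeres, had 99.2, 93.8, 105 and 91.5 CPM in MII Null and 110, 102 and 94.2 CPM in MII WT libraries. GV libraries held 126, 106 and 117 CPM in Null and 120, 126 and 120 CPM in WT, without overlap between stages within a genotype. It fell by 0.26 on the log2 scale in Null (adjusted p = 0.00983) and by 0.26 in WT (adjusted p = 0.0151). The Null call was lost without GV Null replicate 1 (adjusted p = 0.0568), and the WT call without GV WT replicate 2 or MII WT replicate 3 (adjusted p up to 0.0911). The value is uncertain for another reason. RefSeq gives Kif2c as a synonym of the transcribed pseudogene Gm4961, which had 124 ± 13.5 CPM in MII Null and 120 ± 2.60 CPM in MII WT libraries, against 92.5 ± 5.34 CPM in GV Null and 101 ± 5.88 CPM in GV WT libraries. Gm4961 rose with TMM scaling where Kif2c fell (log2 0.43, adjusted p = 3.49e-04 in Null, and log2 0.25, adjusted p = 0.0262 in WT), and how reads shared by the 2 were counted is not given in the sources used here.

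Kif2a, the depolymerase of spindle poles, had 157, 177, 190 and 184 CPM in MII Null and 183, 169 and 164 CPM in MII WT libraries, against 147, 137 and 128 CPM in GV Null and 138, 144 and 139 CPM in GV WT libraries. It rose by 0.37 in Null (adjusted p = 5.98e-04) and by 0.29 in WT (adjusted p = 0.00659) on the log2 scale. Kif18a, which shortens kinetochore microtubules and aligns chromosomes, had 80.2, 95.0, 92.1 and 86.3 CPM in MII Null and 93.2, 96.5 and 86.0 CPM in MII WT libraries, against 77.9, 64.5 and 74.6 CPM in GV Null and 74.7, 74.3 and 74.3 CPM in GV WT libraries. It rose by 0.29 in Null (adjusted p = 0.00652) and by 0.30 in WT (adjusted p = 0.00813). Both genes stood higher in MII than in GV libraries of the same genotype without overlap, and both lost their calls with plain totals. The Null call of Kif18a was also lost without GV Null replicate 2 (adjusted p = 0.0550). Without GV Null replicates 2 and 3 both Null calls were lost (log2 0.27, adjusted p = 0.0700 for Kif2a, and log2 0.18, adjusted p = 0.240 for Kif18a). Kif2a shares part of its span with Dimt1, and Kif18a with Mettl15.

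Kif18b, which acts on astral microtubules, had 33.9, 33.9, 34.0 and 28.2 CPM in MII Null and 33.9, 34.6 and 30.0 CPM in MII WT libraries, against 24.2, 27.7 and 31.1 CPM in GV Null and 27.8, 25.9 and 26.1 CPM in GV WT libraries. MII Null replicate 4 and GV Null replicate 3 crossed, and in WT the stages did not overlap. The rise passed in WT (log2 0.30, adjusted p = 0.0292) and missed the threshold in Null (log2 0.23, adjusted p = 0.0640). The WT call was lost on leaving out 1 of 7 libraries, which are GV WT replicates 2 and 3, MII WT replicates 1 and 2 and MII Null replicates 1, 2 and 3 (adjusted p up to 0.104).

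Kif11, the motor that pushes spindle poles apart, had 71.2, 90.1, 82.7 and 103 CPM in MII Null and 98.7, 93.4 and 83.5 CPM in MII WT libraries, against 103, 84.1 and 96.0 CPM in GV Null and 103, 102 and 102 CPM in GV WT libraries. Its log2 fold change was -0.12 in Null (95% interval -0.34 to 0.095) and -0.16 in WT (-0.39 to 0.070). Kif15, which acts beside Kif11 on bundled microtubules, had 6.38, 5.50, 7.05 and 10.3 CPM in MII Null and 6.03, 7.65 and 7.49 CPM in MII WT libraries, against 8.25, 7.84 and 8.38 CPM in GV Null and 7.61, 8.30 and 7.98 CPM in GV WT libraries. Its log2 fold change was -0.16 in Null and -0.17 in WT. With plain totals Kif11 passed as lower in MII in both genotypes (adjusted p = 0.0116 in Null and 0.0151 in WT).

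In the group of cilium, signalling and other motors, 2 of 7 tested genes rose and 1, Kif26a, fell in each genotype with TMM scaling. That is 42.9% called in each, where 49.0% of all genes were in Null and 42.7% in WT. Kif21b, a regulator of microtubule growth in neurons and lymphocytes, had 18.0, 18.3, 19.6 and 21.8 CPM in MII Null and 20.7, 24.9 and 23.1 CPM in MII WT libraries, against 15.6, 15.7 and 16.5 CPM in GV Null and 18.0, 17.8 and 15.0 CPM in GV WT libraries. MII libraries were higher in both genotypes without overlap. Its rise in WT, 0.43 on the log2 scale, was the largest among kinesin genes there (SE 0.11, adjusted p = 0.00410), and in Null it was 0.28 (adjusted p = 0.0319). The Null call of Kif21b was lost in 11 of 23 alternatives. Among these were a filter of 5 CPM, plain totals, the replicate block and a fit of only the groups compared. It was also lost without GV Null replicate 1 or 2 or MII Null replicate 3 or 4 (adjusted p up to 0.129), and without GV Null replicates 2 and 3 together (log2 0.32).

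Kif24, which trims microtubules at the mother centriole and restrains cilium growth, had 97.9, 112, 106 and 107 CPM in MII Null and 89.8, 113 and 97.7 CPM in MII WT libraries. GV Null libraries held 89.0, 76.7 and 83.1 CPM and GV WT libraries 80.2, 90.5 and 86.0 CPM, with overlap in WT through MII WT replicate 1 and none in Null. The log2 fold change was 0.35 in Null (adjusted p = 0.00250) and 0.23 in WT (adjusted p = 0.0493). The WT call stood next to the threshold and was lost in 18 of 23 alternatives, including the removal of any 1 of 10 libraries (all but GV Null replicates 1 and 2 and MII WT replicate 1), with an adjusted p up to 0.290. The Null call of Kif24 was lost without GV Null replicates 2 and 3 (log2 0.25, adjusted p = 0.148). Kif1bp, the kinesin-binding protein, had 42.6, 51.1, 46.9 and 46.9 CPM in MII Null and 43.2, 47.0 and 49.1 CPM in MII WT libraries, against 41.5, 37.0 and 33.8 CPM in GV Null and 38.0, 42.0 and 36.2 CPM in GV WT libraries. The stages did not overlap, and it rose by 0.32 in Null (adjusted p = 0.00712) and by 0.26 in WT (adjusted p = 0.0397) with TMM scaling. Its WT call was lost in 14 of 23 alternatives, 8 of them removals of 1 library (GV WT replicate 1 or 3, MII WT replicate 2 or 3, or any MII Null replicate, adjusted p up to 0.152). Its Null call was lost with a filter of 5 CPM, with plain totals and without GV Null replicates 2 and 3 (log2 0.18, adjusted p = 0.344), and without GV Null replicate 3 alone its adjusted p equalled the threshold to 3 digits. Kif9, Kif21a, Kif26b and Kif27 did not pass in either genotype with TMM scaling. Their log2 fold changes were -0.17, -0.24, -0.050 and 0.14 in Null and -0.026, 0.086, -0.039 and -0.015 in WT. With plain totals Kif9 passed as lower in MII in Null (adjusted p = 0.00897).

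**Figure D4:**
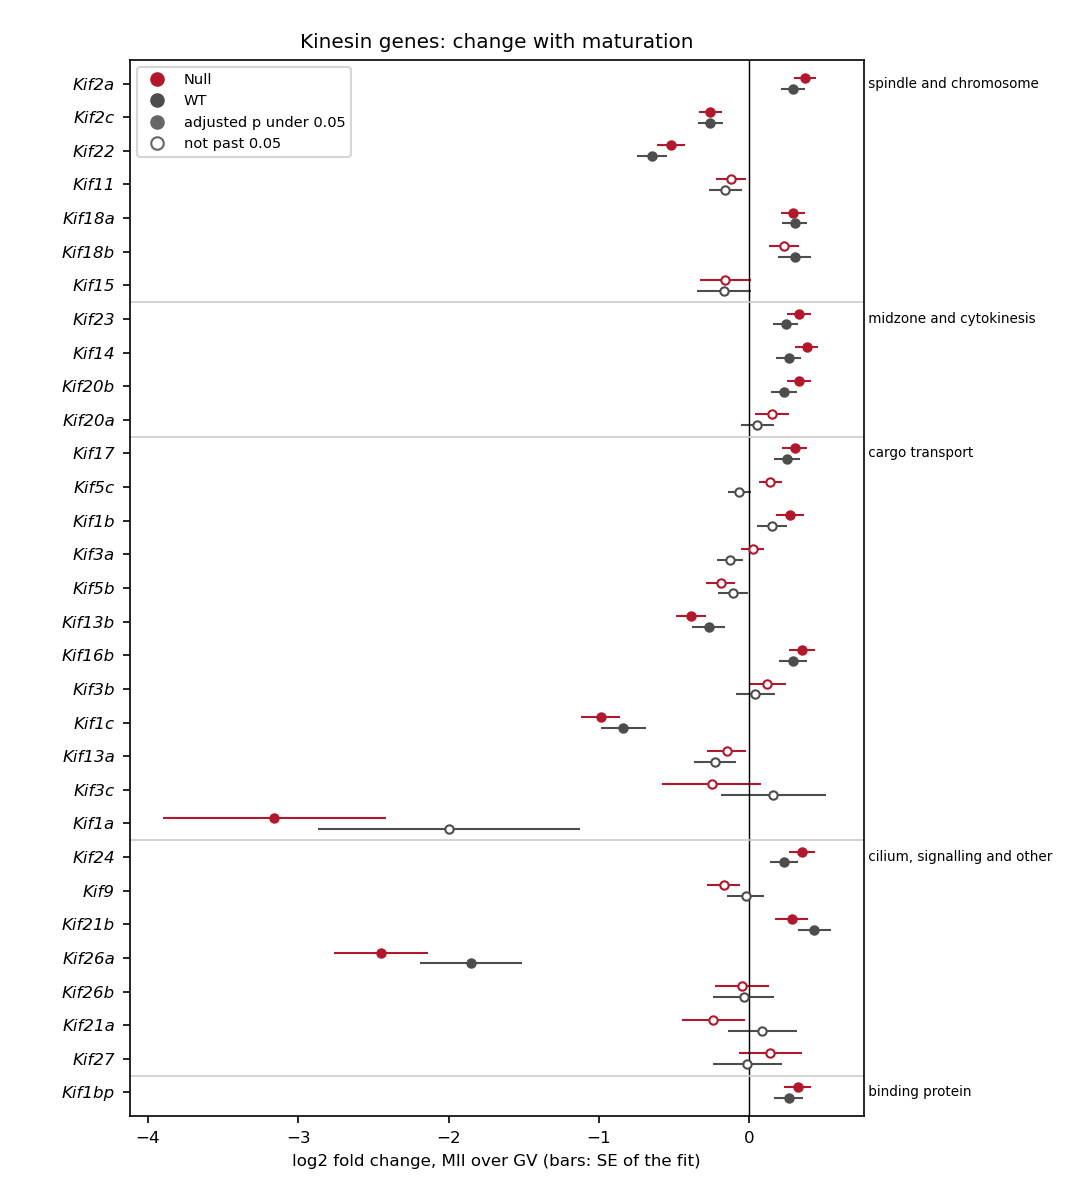
Log2 fold change of MII over GV for the 31 tested kinesin genes, in Null and in WT, with the SE of the fit as bars and filled points for an adjusted p under 0.05. Changes upward reach at most 0.43, and Kif26a at -2.45 and -1.85 and Kif1c at -0.99 and -0.84 stand out downward, beside Kif1a, which had at most 40 counts in a library.

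The stage changes can also be read by whether libraries overlap. In WT 11 genes had all MII libraries above and 9 all MII libraries below the GV libraries, where 28.2% and 30.1% of all genes did so (58.3% in either direction). In Null 10 were above and 6 below, where 21.2% and 25.2% of all genes did so (46.4% in either direction). Without GV Null replicates 2 and 3, the libraries with cumulus markers, the Null comparison rests on 1 GV library whose spread is taken from the other groups, and 7 genes passed, 2 higher and 5 lower. Those were Kif17 (log2 0.34, adjusted p = 0.0434) and Kif18b (log2 0.43, adjusted p = 0.0333) upward, and Kif26a (-2.69), Kif1c (-1.03), Kif22 (-0.76), Kif13b (-0.64) and Kif2c (-0.37) downward. With MII Null replicate 4 also left out, 2 were higher and 6 lower. The WT count without GV Null replicates 2 and 3 was the same as with them, 11 higher and 5 lower, and without MII Null replicate 4 it was 7 higher and 5 lower.

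Counts in WT also moved with single libraries, some of them MII Null libraries. The number of genes that passed was 8 without GV WT replicate 1 and 8 without GV WT replicate 3, and 9 without MII WT replicate 1. It was 10 on leaving out GV WT replicate 2, MII WT replicate 3, or either of MII Null replicates 1 and 3. Of the 11 rises in WT, 3 kept their call whichever 1 library was left out (Kif18a, Kif21b and Kif2a), and of the 5 falls 3 did (Kif1c, Kif22 and Kif26a). In Null 8 of 11 rises and 5 of 6 falls did.

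Many genes that switch on for cell division carry short promoter motifs, the cell cycle genes homology region (CHR, letters TTTGAA or TTCGAA) and the CCAAT box. The 250 bases before each listed RefSeq start were searched for both on either strand. CCAAT thus also appears as ATTGG, and TTTGAA as TTCAAA. A listed start can lie inside the RefSeq span of its gene, so a window need not lie before the whole gene. Of the 39 genes 32 matched a window, 36 windows in all. CHR letters stood in 9 genes, or 25% of their windows against 17.1% of all 32851 windows, and CCAAT in 15 genes, or 44.4% against 33.8%. Both stood in 6 genes, or 16.7% of windows against 6.02%. The CHR-bearing windows of Kif14, Kif1a, Kif2c and Kif27 lie wholly inside the RefSeq span of the gene, and those of Kif22 and Kif24 partly. The stretches below, from RefSeq (GRCm38.p6), belong to the 5 genes with CHR letters starting within 30 bases of the start. Kif17, which has neither motif in its window, is shown beside them. Letters are 5′ to 3′ on the transcribed strand and end at the base before the start, with motif letters in capitals. Where the stretch lies inside the RefSeq span of the gene, 30 bases are shown, and otherwise 60.
Kif22 (chr7:127042421-127042450, minus strand): ggggccccggtaaTTCAAAagagagaagcg
Kif24 (chr4:41464849-41464878, minus strand): cgcgTTCGAActggcgcttgtggcgttgcc
Kif11 (chr19:37376322-37376381, plus strand): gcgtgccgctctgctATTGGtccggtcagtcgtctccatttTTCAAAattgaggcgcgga
Kif15 (chr9:122951021-122951080, plus strand): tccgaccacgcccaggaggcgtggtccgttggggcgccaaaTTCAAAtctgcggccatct
Kif26b (chr1:178529065-178529124, plus strand): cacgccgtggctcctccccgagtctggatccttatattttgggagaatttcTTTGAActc
Kif17 (chr4:138262191-138262250, plus strand): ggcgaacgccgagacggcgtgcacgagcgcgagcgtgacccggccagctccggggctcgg

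Of the CHR-bearing genes printed, Kif22 fell and Kif24 rose with TMM scaling, and Kif11, Kif15 and Kif26b did not pass. Transcription was not measured, and a link between promoter letters and stage changes was not tested. A match of letters is a description and not a binding site, and its absence says only that the letters are not in this window.

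The study deleted the Sirena1 promoter, and the comparison of genotypes asks whether kinesin mRNAs differ in its absence. In MII eggs 0 of 31 genes passed, where 0.0546% of all genes did. At an unadjusted p under 0.05 there were 3 (Kif13b, Kif21b and Kif27), where 6.35% of all genes had such a p, and DESeq2 called 0, with 3 at an unadjusted p under 0.05. In GV oocytes 0 of 31 passed, where again 0.0546% of all genes did. The edgeR test gave 2 at an unadjusted p under 0.05 (Kif22 and Kif3a), where 6.66% of all genes had such a p, and DESeq2 called 0 and gave 4. The median log2 fold change was -0.024 in eggs, against 0.014 over all genes, and -0.050 in GV oocytes, against 0.018.

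The smallest p in eggs belonged to Kif13b, the vesicle motor. It had 26.0, 29.2, 29.6 and 29.6 CPM in the MII Null libraries and 36.3, 36.5 and 32.4 CPM in the MII WT libraries, so all Null libraries lay below all WT libraries. The log2 fold change was -0.29 (95% interval -0.50 to -0.085, adjusted p = 0.642). Kif21b, at 19.4 ± 1.76 CPM in MII Null and 22.9 ± 2.08 CPM in MII WT libraries, gave -0.24 (adjusted p = 0.772). Kif27, a kinesin linked to motile cilia, had 4.04, 3.50, 3.53 and 3.67 CPM in MII Null and 2.48, 3.34 and 2.10 CPM in MII WT libraries. Its log2 fold change was 0.48 (95% interval 0.029 to 0.94, adjusted p = 0.772), and the groups did not overlap. Next came Kif13a, with 7.42, 7.49, 5.59 and 7.96 CPM in MII Null and 8.25, 7.82 and 8.38 CPM in MII WT libraries (log2 -0.20, adjusted p = 0.871). In all, 1 gene was higher and 1 lower in Null eggs without overlap, where 6.07% of all genes did not overlap (2.94% higher and 3.13% lower).

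In GV oocytes the smallest p belonged to Kif22, at 116, 86.0 and 92.7 CPM in GV Null and 120, 115 and 114 CPM in GV WT libraries. GV Null replicate 1 lay among the WT libraries, and replicates 2 and 3, which had the raised cumulus markers, lay below them. The log2 fold change was -0.24 (95% interval -0.45 to -0.026, adjusted p = 0.718). Kif3a stood at 51.7, 50.9 and 50.4 CPM in GV Null and 58.2, 61.1 and 54.1 CPM in GV WT libraries without overlap (log2 -0.18, adjusted p = 0.738). Kif13a had 7.74, 8.41 and 7.59 CPM in GV Null and 9.57 ± 0.628 CPM, with 8.85 CPM at the lowest, in GV WT libraries, also without overlap (log2 -0.27, adjusted p = 0.768), and Kif5c gave -0.15 (97.2 ± 7.33 against 108 ± 3.42 CPM, adjusted p = 0.771). In all, 1 gene was higher and 5 lower in Null without overlap, where 12.8% of all genes did not overlap (6.83% higher and 5.93% lower).

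**Figure D5:**
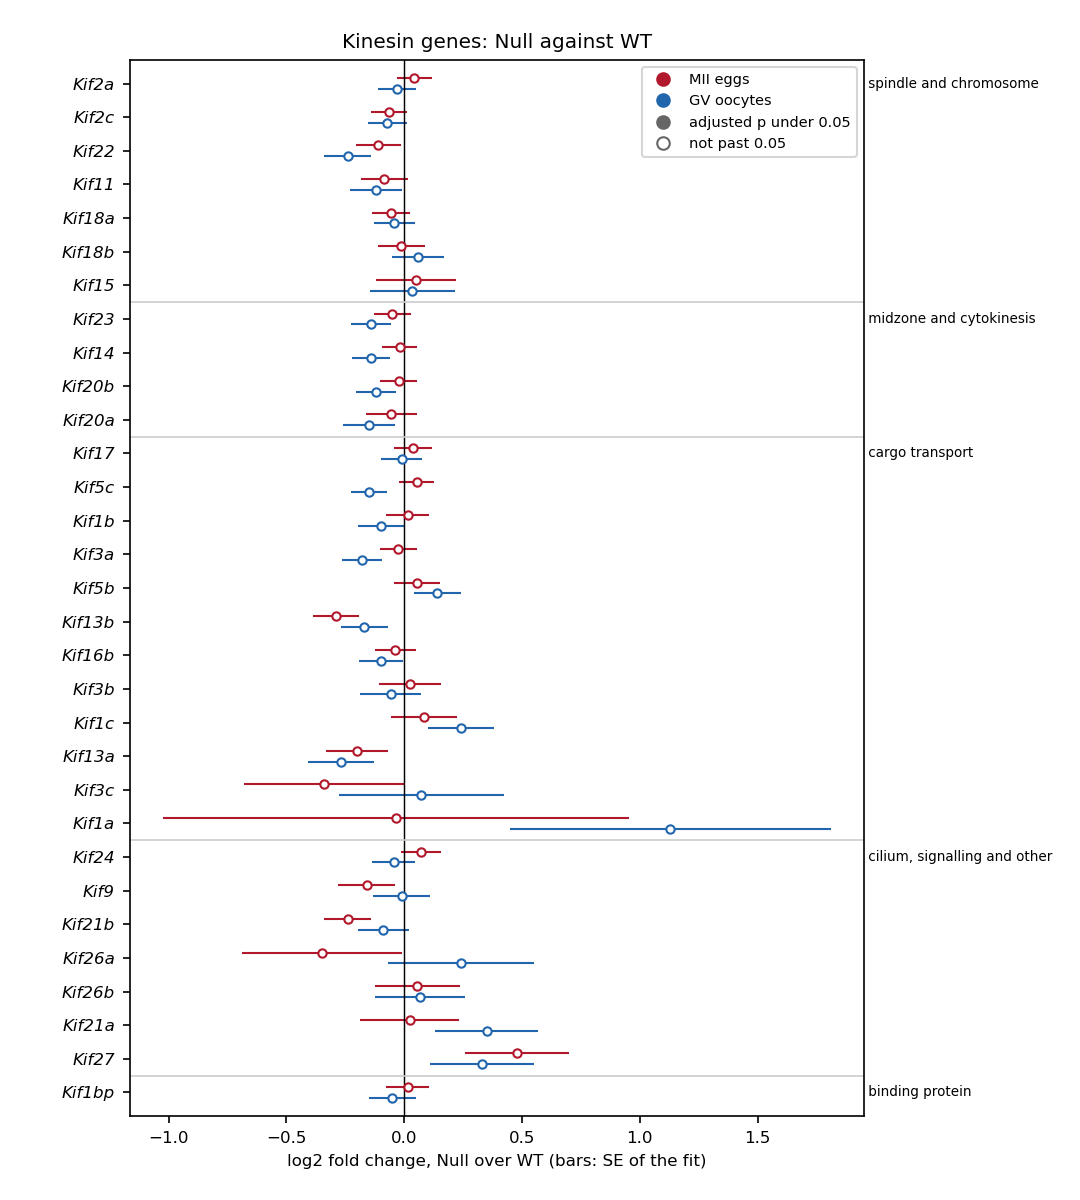
Log2 fold change of Null over WT for the 31 tested kinesin genes, in MII eggs and in GV oocytes, with the SE of the fit as bars. All points are open, since 0 genes had an adjusted p under 0.05, and the widest bars belong to genes of few counts, such as Kif1a and Kif3c.

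The midzone motors Kif23, Kif14, Kif20b and Kif20a gave log2 fold changes of Null over WT in GV oocytes of -0.14, -0.14, -0.12 and -0.15, and none passed (smallest adjusted p 0.804). In GV Null replicate 1 alone, the library without raised cumulus markers, Kif23 stood at 608 CPM, against 599, 607 and 591 CPM in GV WT libraries, and in replicates 2 and 3 at 491 and 528 CPM. Without those 2 libraries the median over the 32 genes then tested was 0.016, beside -0.050 with them. The part of cumulus RNA in these differences was not tested. Kif1a, at 0.393, 1.05 and 0.687 CPM in GV Null and 0.269 to 0.351 CPM in GV WT libraries, was the gene higher in Null without overlap (log2 1.13, 95% interval -0.30 to 2.55, adjusted p = 0.811).

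The direct test of whether the Null effect differed between stages, which is also the test of whether the stage change differed between genotypes, called 0 of 31 genes. Over all genes it called 0.00496%. With edgeR 0 genes had an unadjusted p under 0.05, and DESeq2 called 0 and gave 1. The smallest p was that of Kif5c (log2 0.21, 95% interval -0.020 to 0.43, adjusted p = 0.999). Kif3a, Kif26a and Kif14 came next, with log2 differences of 0.15, -0.60 and 0.13 and the same adjusted p. The median over the 31 genes was 0.048, against 0.0044 over all genes. The stage changes in Null and WT compare different libraries, and their values for each gene are set side by side in the plot of change with maturation. Both take their scaling and spread from the fit of all 13 libraries, so the calls in Null and WT are not independent.

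Around the family, other genes of microtubule transport and the spindle were read from lists chosen with earlier results of these data known. Calls in these lists were not counted without GV Null replicates 2 and 3, so their Null counts lack that check. The Null and WT counts side by side are not a test of genotype. Of the 10 tested kinesin motors and chains outside the naming rule, 1 rose and 4 fell in Null and 2 rose and 3 fell in WT. Over all genes 22.1% rose and 26.9% fell in Null and 19.9% and 22.8% in WT, and with plain totals 9.85% and 36.3% in Null and 9.09% and 29.3% in WT. The 10 genes had 50.0% called in each genotype, where 49.0% of all genes were in Null and 42.7% in WT. Klc1, a kinesin-1 light chain, was 1.39-fold lower in MII in Null (log2 -0.48, adjusted p = 0.00132) and 1.74-fold lower in WT, at 10.8 ± 0.977 CPM in MII and 18.8 ± 0.880 CPM in GV WT libraries (log2 -0.80, adjusted p = 2.41e-05). Kifc1, a minus-end motor of spindle poles, fell by 0.29 in Null (adjusted p = 0.0213) and by 0.53 in WT (adjusted p = 6.03e-04), and its close relative Kifc5b fell by 0.38 in WT (adjusted p = 0.0160) and did not pass in Null (log2 -0.26, adjusted p = 0.0652). Kifc1 and Kifc5b are close copies, and their split of reads is uncertain. With plain totals 0 of the 10 rose in either genotype, and 5 fell in Null and 3 in WT.

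Of the 15 partners of spindle and midzone kinesins, 8 rose and 3 fell in Null and 4 rose and 3 fell in WT, and with plain totals 3 rose and 6 fell in each. With TMM 73.3% were called in Null and 46.7% in WT. Of all genes, 22.1% were higher and 26.9% lower in Null, and 19.9% and 22.8% in WT. The direct test of whether the stage change differed between genotypes called 0 of the 15. With plain totals 9.85% and 36.3% of all genes were higher and lower in Null and 9.09% and 29.3% in WT. Birc5, the survivin subunit of the chromosomal passenger complex that Kif20a carries, had 75.0 ± 13.7 CPM in MII and 321 ± 16.1 CPM in GV Null libraries, and 71.8 ± 3.00 CPM in MII and 326 ± 21.4 CPM in GV WT libraries. That is 4.27-fold lower in Null (adjusted p = 4.33e-11) and 4.54-fold lower in WT (adjusted p = 1.19e-10). Haus1, a subunit of augmin, which branches spindle microtubules, had log2 fold changes of -1.85 in Null and -1.78 in WT, both past the threshold. Nusap1, which bundles microtubules near chromosomes, rose by 0.63 in Null, to 438 ± 48.8 CPM against 282 ± 11.6 CPM in GV libraries, and by 0.60 in WT, to 451 ± 13.5 CPM against 296 ± 4.91 CPM.

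Of 14 tested cargo adaptors, out of 19 listed gene IDs, 4 rose and 3 fell in Null and 4 rose and 4 fell in WT, against 0 and 6 in Null and 1 and 7 in WT with plain totals. The shares called with TMM, 50.0% in Null and 57.1% in WT, compare with 49.0% and 42.7% of all genes. Trak2, which links kinesin-1 to mitochondria, had 12.5 ± 2.04 CPM in MII and 42.8 ± 5.27 CPM in GV Null libraries (log2 -1.78, adjusted p = 1.31e-08). In WT it had 13.6 ± 2.03 CPM in MII and 33.1 ± 5.39 CPM in GV libraries (log2 -1.28, adjusted p = 2.49e-06). The heavy chains Kif5b and Kif5c did not pass with TMM scaling, and with plain totals Kif5b passed as lower in both genotypes and Kif5c in WT. Jakmip1, a microtubule-binding protein of neurons, fell by 0.84 in Null and by 1.01 in WT. Clstn1, which links kinesin-1 to vesicles, rose by 0.43 in Null (adjusted p = 0.00564) and by 0.52 in WT (adjusted p = 0.00275), and with plain totals it passed in WT (adjusted p = 0.0389) and not in Null (adjusted p = 0.135).

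Dynein and its activator dynactin walk the other way along microtubules. Of 24 genes, 5 rose and 10 fell in Null and 4 rose and 8 fell in WT, against 2 and 14 in Null and 0 and 11 in WT with plain totals. The shares called with TMM, 62.5% in Null and 50.0% in WT, stand beside 49.0% and 42.7% of all genes, so these counts are not a result about dynein. Dync1li2, a dynein light intermediate chain that binds cargo, had 6.57 ± 0.578 CPM in MII and 18.7 ± 1.03 CPM in GV Null libraries (2.84-fold lower, adjusted p = 4.40e-09), and 6.71 ± 0.446 CPM in MII and 20.5 ± 2.14 CPM in GV WT libraries (3.05-fold lower, adjusted p = 7.55e-09). The dynactin subunits Dctn3 and Actr10 fell, with log2 fold changes of -1.62 and -1.41 in Null and of -1.87 and -1.34 in WT. In none of these 4 lists did a gene pass in a comparison of Null with WT or in the test of the difference between stages.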

How the data were processed

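Poly(A) RNA of 13 pools of 25 oocytes or eggs was sequenced as 65-base single-end reads, per the labels. The table deposited by the authors holds raw read counts per Ensembl gene (release 93, mm10), and STAR 2.5.3a and bedtools 2.26.0 are named per the submitters' processing notes. How reads were assigned to genes, with which strand option, and what became of reads with several matches is not given in the sources used here. A spike-in named in the labels was not used here.

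Genes were tested with edgeR 4.0.16 in R 4.3.3 (TMM scaling, filterByExpr, robust glmQLFit, 2-sided quasi-likelihood test) in 1 fit of 4 groups over 13 libraries, with 5 comparisons and Benjamini-Hochberg adjustment over 20143 genes at 0.05. Intervals of log2 fold changes are 95% and use the degrees of freedom of that fit. The pipeline was also run on simulated data with fewer changed genes than the stage comparisons here and no fold under 1.5. That run does not test the scaling of the stage comparisons or the smaller folds reported. Alternatives were RLE scaling, DESeq2 1.42.0, other filters, a 1.5-fold minimum, a replicate block and libraries left out. Plain library totals and the removal of 3 libraries together were chosen after seeing the data. Between 30867614 and 41285507 counts per library set the precision.

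The kinesin genes and the other lists were chosen with earlier results of these data known. Values per library are given for the 6 genes with the highest mean CPM and for genes that passed with at least 5 CPM (up to 8 in each direction). They are also given for the 4 smallest p in each genotype comparison, and for chosen spindle and transport kinesins. Kif1a is given in full outside that rule, chosen after its values were seen. Kif13a in GV WT libraries is given by its mean and lowest value.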

Additional observations from a re-analysis of the deposited data

Results flagged for a closer look

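In the MII Null group, the only one with 4 libraries, 31 genes were checked for a library far from the other 3, and chance alone gives about 1 in 20 such cases. Kif18b stood at 28.2 CPM in replicate 4 and at 33.9 to 34.0 CPM in the others. Kif13b stood at 26.0 CPM in replicate 1 and at 29.2 to 29.6 CPM in the others. Kif1b stood at 80.9 CPM in replicate 1 and at 108 to 113 CPM in the others. These 3 cases are given as values, and their cause was not tested.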

How the results depend on the processing

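No called gene changed direction, and the counts of genes called between genotypes stayed at 0 in all alternatives. For MII against GV in WT, the 16 calls became 10 with a filter of 5 CPM (3 higher, 7 lower), 1 with a minimum of 1.5-fold and 10 with plain totals, and ranged from 8 to 16 on leaving out single libraries. The median of 0.039 became -0.034 with no filter, -0.065 with the 5 CPM filter and -0.16 with plain totals, and ranged from -0.046 to 0.072 without single libraries. For MII against GV in Null, the 17 calls became 3 with a minimum of 1.5-fold, 7 without GV Null replicates 2 and 3, 8 without those and MII Null replicate 4, and 11 with plain totals, and ranged from 15 to 18 without single libraries. The median of 0.12 became 0.0078 with the 5 CPM filter, 0.029 with the replicate block, 0.013 without the 3 libraries and -0.11 with plain totals, and ranged from 0.0063 to 0.095 without single libraries. The median difference between stages, 0.048, became -0.029 without GV Null replicates 2 and 3 and -0.039 without the 3 libraries, and ranged from 0.0060 to 0.093 without single libraries. The summed level became 2867 CPM in MII WT, 2821 CPM in GV Null and 2996 CPM in GV WT with plain totals, and 2787 CPM in GV Null without replicates 2 and 3, and from 2493 to 2662 CPM there without single libraries. The cause of these shifts was not tested beyond the change of scaling, filter or libraries itself.

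Replicate numbers did not pair the samples: over 18 same-numbered pairs r ran from -0.205 to 0.219, and 3 were over 0.1. With the replicate block 14 genes passed in WT (9 higher, 5 lower) and 17 in Null (10 higher, 7 lower). Genes with few counts, such as Kif1a, are limited by depth.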
